A study of Saccharomyces cerevisiae with 4 samples.

Results

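The mitochondrial ribosome of budding yeast translates the few proteins encoded in mitochondrial DNA, most of them subunits of the respiratory chain. Its RNA comes from mitochondrial DNA, whereas nearly all of its proteins are encoded in the nucleus, made in the cytosol and imported. The genes described here were the protein-coding rows whose standard name begins with MRPL, MRPS or RSM followed by a number, together with SWS2. This rule found 55 genes among the 7071 rows and 5988 protein-coding rows of the tables. By name, 34 of these (the MRPL genes) were assigned to the large subunit and 21 to the small subunit (9 MRPS genes, 11 RSM genes and SWS2). The genes lie on 14 nuclear chromosomes, and 34 of them encode counterparts of bacterial ribosomal proteins, which make up the core around the ribosomal RNA. The other 21 encode proteins listed as particular to mitochondrial ribosomes.

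Total RNA of the wild-type S. cerevisiae strain CB67, of W303 origin, was sequenced in 4 libraries after depletion of large rRNA. The cells of all 4 had been arrested in G2/M with benomyl (80 µg/ml for 90 min), a drug that blocks microtubules, so arrest was common to both groups. In 2 libraries the cells had then received thiolutin (20 µg/ml for 30 min), an inhibitor of yeast RNA polymerases that also binds zinc, and in the other 2 its solvent DMSO. The replicates of each group carry the letters a and b, and a pellet of S. pombe cells was added to each cell pellet as a spike-in before RNA extraction. The question was how the transcripts of the large and of the small mitochondrial subunit stood after polymerase inhibition. The labels give only WT for the genotype and do not say whether replicates came from independent cultures, so p-values measure the spread between these libraries, which may be technical.

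A single RNA-binding protein, Puf3, is known to recognise many of the messengers in this family. It binds a short element, TGTANATA in DNA letters with any base at N, in the 3′ untranslated region, promotes shortening of the poly(A) tail and decay when glucose is plentiful, and has been linked to the localisation of these messengers near mitochondria. A cytosine as the second base before the element is a known feature of its preferred sites. The element was searched on the sense strand in the 250 bases after each stop codon in the R64 reference, which is from strain S288C and not W303. This window stands in for the 3′ untranslated region, whose ends were not mapped here. The element was present after 54 of the 55 genes (98.2%), against 909 of 5988 protein-coding genes (15.2%). RSM22 was the exception. On the opposite strand of the same windows it was found in 20.0% of the genes and in 14.6% of all protein-coding genes.

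The sites below belong to the genes chosen by rule for their values. They are shown because nearly all genes of the family have this short element. RSM23 and MRPS5, the 2 genes with the highest fold changes, were added after their values had been seen. Further sites of MRPL33 (base 165), MRPL36 (base 138) and MRPS5 (base 8), none of them with the cytosine, are not printed. Each line gives the reference coordinates of the printed bases on R64, the strand and the distance of the element from the stop codon, where 1 is the first base after it. Capitals mark the element.
MRPL10 (chrXIV:103078-103101, minus strand, base 41): ttctcactTGTACATAccttaaga
MRPL20 (chrXI:599052-599075, minus strand, base 27): aacaatcgTGTAAATActactcta
MRPL33 (chrXIII:842252-842275, plus strand, base 58): cttatataTGTATATAgtattatt
SWS2 (chrXIV:476047-476070, minus strand, base 126): tcactcccTGTATATAatgtattt
MRPL49 (chrX:246980-247003, plus strand, base 13): tagggataTGTACATAtacgcata
MRPL49 (chrX:247008-247031, plus strand, base 41): taaaatcaTGTAAATAacaataaa
MRPL8 (chrX:315717-315740, minus strand, base 27): tattccctTGTAAATAtatagatg
MRPL22 (chrXIV:303535-303558, minus strand, base 136): tgtgattcTGTAAATAacaactag
MRPL1 (chrIV:682671-682694, minus strand, base 38): tttttaatTGTATATAtatatata
MRPL1 (chrIV:682622-682645, minus strand, base 87): taaaatcaTGTACATAcaaagtaa
MRPL37 (chrII:741641-741664, plus strand, base 33): ggtatcctTGTAAATAaatatgtg
RSM27 (chrVII:922550-922573, plus strand, base 51): tcatttcaTGTACATAcaaaatca
MRPL36 (chrII:483853-483876, minus strand, base 102): aacagcctTGTATATAccgcaaca
RSM10 (chrIV:540465-540488, plus strand, base 59): ttcgtactTGTAAATAaaataggt
MRPL4 (chrXII:1015470-1015493, plus strand, base 28): ctctctccTGTAAATAtatatata
RSM28 (chrIV:1438039-1438062, plus strand, base 32): tacataccTGTAAATAtctagtac
MRPS5 (chrII:722375-722398, plus strand, base 70): ataataccTGTAAATAtctcaaca
RSM23 (chrVII:267629-267652, minus strand, base 79): atttctcaTGTACATAtaaataga

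The 54 genes held 69 such sites, with 1 site in 41 genes and 2 or more in 13. The variable base was A in 29 sites, T in 22, C in 17 and G in 1. A cytosine stood as the second base before the element in 44 of the 69 sites (63.8%), and 44 genes had at least 1 site of this kind (80.0%). Among the 5933 other protein-coding genes, 24.3% of the 934 sites had this cytosine, and 3.76% of the genes had such a site. The lines above show it in MRPL10, MRPL20 and SWS2, whereas neither MRPL33 nor MRPL22 had a site with it. The first site of each gene began between 8 and 139 bases after the stop codon, with a median of 54.5 bases. Large subunit genes had the element most often in the bin from base 26 to base 50 (17 of 34 genes) and small subunit genes in the bin from base 51 to base 75 (10 of 21). A match of 8 letters describes the reference sequence and does not show binding.

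**Figure D1:**
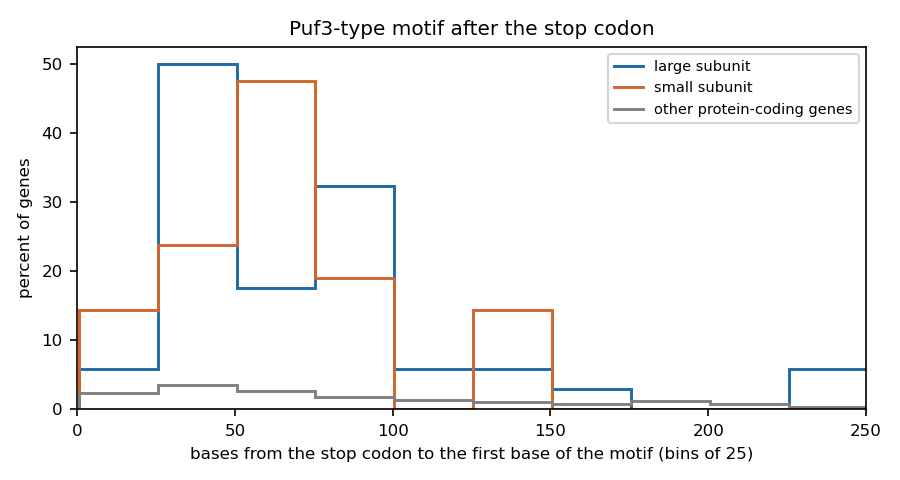
Percent of genes (vertical axis) with a Puf3-type element beginning in each bin of 25 bases after the stop codon (horizontal axis) for large subunit genes (blue), small subunit genes (orange) and all other protein-coding genes (grey). The element lies within 100 bases of the stop codon in most of the family (87.3% of the 55 genes), and the grey line stays at or below 3.44% in every bin.

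Expected counts per library summed to between 11598766 (thiolutin b) and 48045781 (DMSO b), but 80.8% to 86.6% of them lay on rRNA genes and 6.56% to 11.8% on protein-coding genes. The median count of the 55 genes was 373 and 594 in DMSO a and b, and 175 and 58 in thiolutin a and b. Over all protein-coding genes it was 132, 223, 73.5 and 29 in the same order. None of the 55 fell under 10 counts in a DMSO library, whereas 1 did in thiolutin a and 5 did in thiolutin b, so that thiolutin b sets the precision for the weakest genes. All 55 passed the filter on low counts that left 5527 rows for testing. As a check of the labelled cells, the MATa markers STE2, MFA1, MFA2 and BAR1 summed to 1726 to 1894 normalized counts with DMSO and 1108 to 1133 with thiolutin. The MATalpha markers summed to at most 3.83, and MF(ALPHA)2 was at 0 in all libraries. Of 6 G2/M markers, 3 were lower with thiolutin and none higher (sums of 936 to 989 with DMSO and 507 to 521 with thiolutin). Of 5 tested G1 markers, 1 was higher (sums over 6 genes of 85.8 to 102 and 118 to 132), and the part of these markers' movement in the results below was not tested.

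With thiolutin, 21 of the 55 genes were lower at an adjusted p under 0.05 and none was higher, in edgeR's quasi-likelihood test after TMM normalization, which sets the typical transcript to no change. That is 38.2% of the genes, beside 17.6% of all 5527 rows called lower and 18.5% called higher. In every library these genes had a higher median count than protein-coding genes as a whole. The part of count level in the share called was not tested. The median log2 fold change of the 55 genes was -0.42, while it was -0.04 over the 5270 tested protein-coding genes, and 46 of the 55 values lay below 0. Both thiolutin libraries were below both DMSO libraries in 38 of the 55 genes, beside 2028 of all 5527 rows (36.7%). They were above both in 5 of the 55 genes, beside 1836 of all 5527 rows (33.2%). At the study's stricter threshold of 1e-05, 11 of all 5527 rows were lower and 44 higher in this test. None of the 55 was called in either direction, which is near the share of all rows. That count depends on the test. In edgeR's likelihood ratio test on the same libraries, 1e-05 was passed by MRPL10 (adjusted p = 8.6e-19), MRPL20 (1.9e-07), MRPL33 (6.8e-07) and MRPL49 (2.0e-06). The share of all rows past 1e-05 in the likelihood ratio test is not given. With the quasi-likelihood test only RSM23 reached an unadjusted p under 0.05 in the upward direction, beside 1274 of all 5527 rows. DESeq2 likewise called none higher, with 14 called lower, and the share of all rows that it called is not given. The median of the 55 genes was -0.43 without DMSO a, -0.40 without DMSO b, -0.57 without thiolutin a and -0.29 without thiolutin b. Over protein-coding genes these medians were -0.04, -0.03, -0.07 and -0.06. The number of the 55 called lower fell without either DMSO library and rose without either thiolutin library. Each of these fits leaves 1 library in a group, and the share of all rows called in them is not given. MRPL10, MRPL20, MRPL33, SWS2, MRPL49, MRPL8, MRPL22 and MRPL36 were the 8 genes called lower in each of these fits.

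**Figure D2:**
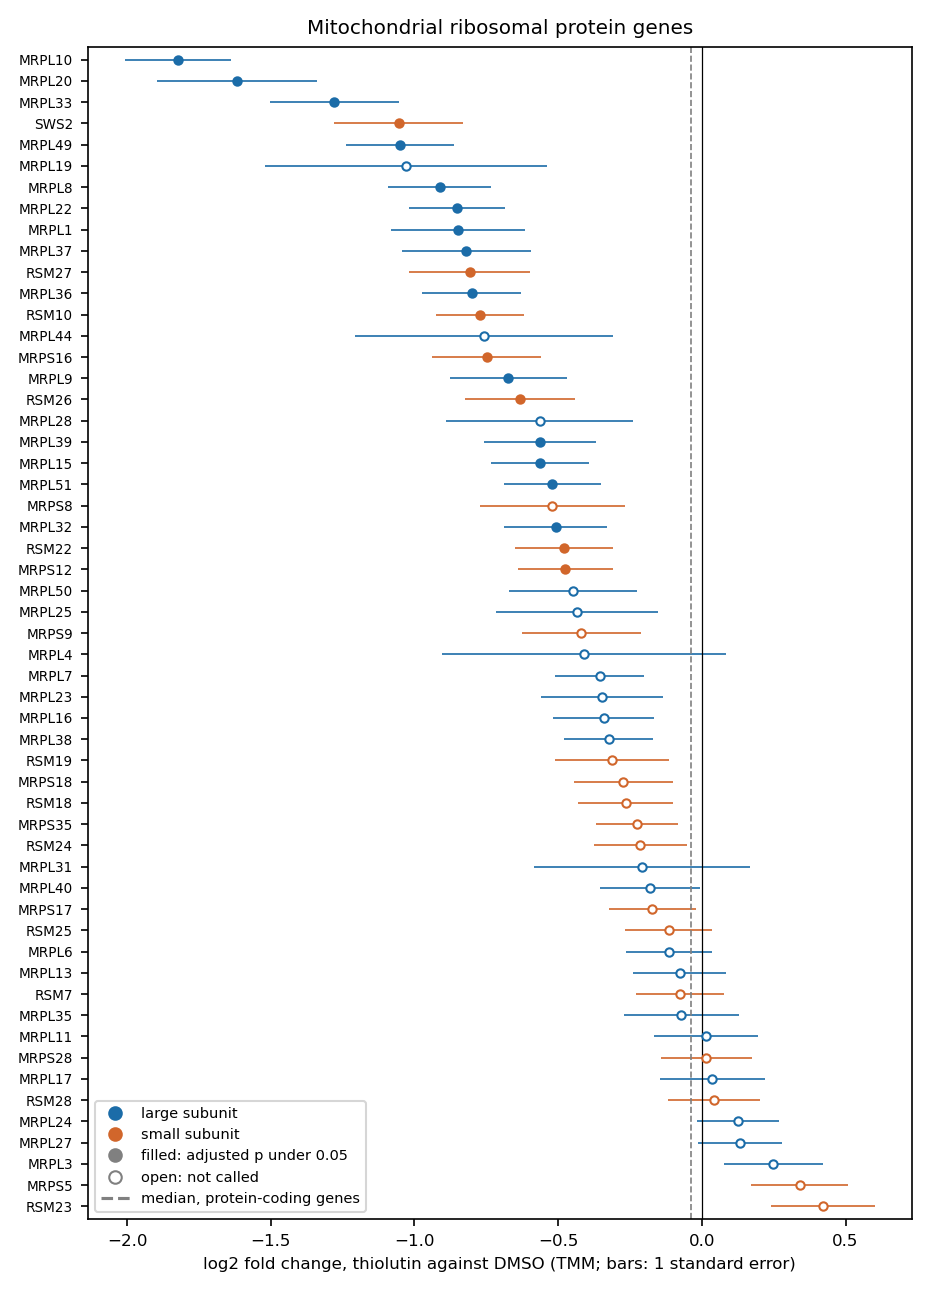
Log2 fold change (horizontal axis, thiolutin against DMSO after TMM normalization, bars of 1 standard error) for each of the 55 genes (vertical axis), with large subunit genes in blue, small subunit genes in orange, filled symbols for an adjusted p under 0.05 and a dashed line at the median of protein-coding genes (-0.04). Values run from -1.82 (MRPL10) to 0.42 (RSM23), and all 21 filled symbols lie below 0.

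MRPL10 (YNL284C, chrXIV:103134-104102, minus strand) encodes uL15m, the counterpart of bacterial L15. It had 883 and 812 normalized counts in DMSO a and b and 275 and 188 in thiolutin a and b. Every thiolutin value was below every DMSO value, for a log2 fold change of -1.82 with a standard error of 0.18 (adjusted p = 4.6e-05), the lowest in the family. MRPL20 (YKR085C, chrXI:599094-599681, minus strand) encodes mL58, a protein without a bacterial counterpart. Its normalized counts were 469 and 422 with DMSO and 190 and 70.6 with thiolutin. The groups did not overlap, but the thiolutin libraries differed from each other by more than the DMSO libraries did, and its fold change of -1.62 on the log2 scale (standard error 0.28, adjusted p = 0.00131) ranged from -2.65 to -1.24 when 1 library was left out.

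MRPL33 (YMR286W, chrXIII:841942-842202, plus strand), which encodes uL30m, had 192 and 169 normalized counts with DMSO and 85.6 and 53.0 with thiolutin (log2 fold change -1.28, standard error 0.22, adjusted p = 0.00147). MRPL49 (YJL096W, chrX:246490-246975, plus strand), for bL21m, went from 302 and 334 to 175 and 121 (log2 fold change -1.05, standard error 0.19, adjusted p = 0.00164). Lower values in both thiolutin libraries were also found for MRPL8 (bL17m), with 222 and 216 normalized counts against 108 and 129. MRPL8 was 1 of the genes in which thiolutin b was above thiolutin a. MRPL22 encodes uL22m, of the family that lines the tunnel through which the new peptide leaves, and had 613 and 559 against 362 and 274. For MRPL1, whose protein uL1m belongs to the mobile stalk beside the site where spent tRNA exits, the values were 150 and 166 against 105 and 58.8. MRPL37, for the mitochondria-specific mL54, had 354 and 296 against 223 and 124. Groups did not overlap in any of these genes, and log2 fold changes were -0.91 for MRPL8, -0.85 for MRPL22, -0.85 for MRPL1 and -0.82 for MRPL37 (standard errors 0.17 to 0.23, adjusted p = 0.00270 for MRPL22 to 0.0156 for MRPL1). MRPL1 was not called without DMSO b, and MRPL37 was not called without DMSO a.

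Of the small subunit, SWS2 (YNL081C, chrXIV:476188-476619, minus strand) had the lowest fold change. It encodes uS13m, a protein of the head of the subunit, and gave 216 and 180 normalized counts with DMSO and 110 and 67.7 with thiolutin (log2 fold change -1.05, standard error 0.22, adjusted p = 0.00423). RSM27, which encodes the mitochondria-specific mS33, had 129 and 116 against 74.4 and 61.8 (log2 fold change -0.81, standard error 0.21, adjusted p = 0.0120). RSM10 encodes uS10m and had the highest level per kb of the small subunit with DMSO (1213 normalized counts per kb). Its 705 and 623 normalized counts with DMSO went to 411 and 359 with thiolutin (log2 fold change -0.77, standard error 0.15, adjusted p = 0.00300). In all 3 genes the groups were apart, and the DMSO libraries lay closer together than the groups did. RSM27 was not called without either DMSO library, and RSM10 was not called without DMSO a.

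**Figure D3:**
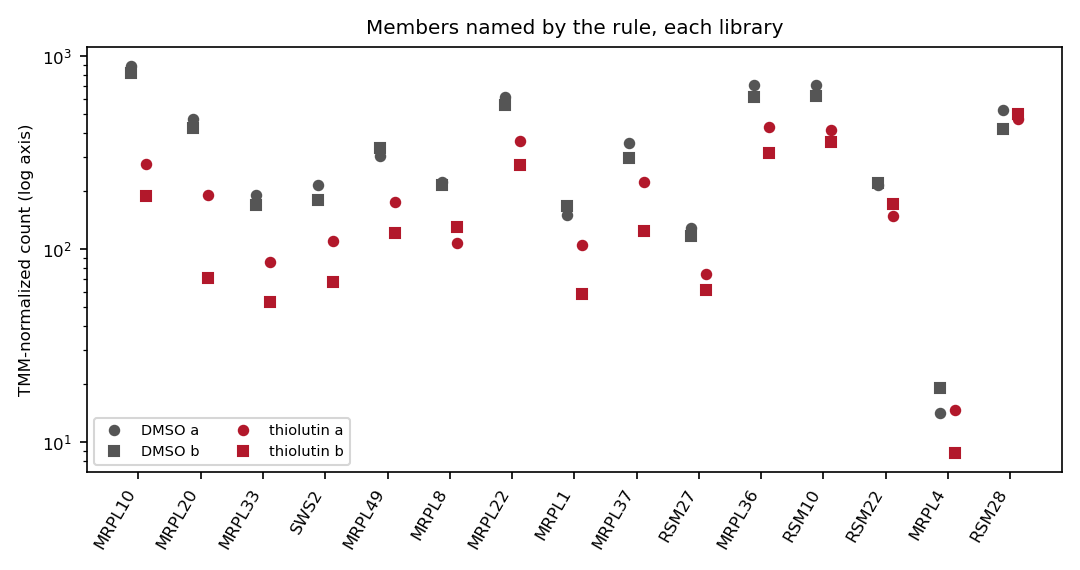
TMM-normalized counts (vertical log axis) of the 15 genes chosen by rule (horizontal axis) in DMSO (grey) and thiolutin (red) libraries, with circles for replicate a and squares for replicate b. Red symbols lie below both grey symbols in 13 genes, and the exceptions are MRPL4 and RSM28.

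MRPL36 and MRPL4 bounded the levels of the large subunit. MRPL36, for bL31m, had 1405 normalized counts per kb with DMSO, and its normalized counts of 703 and 616 with DMSO and 427 and 315 with thiolutin differed without overlap (log2 fold change -0.80, standard error 0.17, adjusted p = 0.00450). MRPL4 encodes uL29m, which in bacteria sits near the mouth of the peptide tunnel, and had 18.6 normalized counts per kb with DMSO. It was covered by 20, 45, 13 and 3 counts in DMSO a, DMSO b, thiolutin a and thiolutin b, and a change of its size (log2 fold change -0.41, standard error 0.49, adjusted p = 0.545) was not detectable at this depth. MRPL19 (uL11m, log2 fold change -1.03, standard error 0.49, adjusted p = 0.125) and MRPL44 (mL53, log2 fold change -0.76, standard error 0.45, adjusted p = 0.213) were chosen after their values had been seen, as further genes with few counts. MRPL19 had 43, 71, 8 and 9 counts in the same order of libraries, and it overlaps YNL184C on the same strand, so its reads could be split between these genes. MRPL51, which was called lower, overlaps YPR099C on the opposite strand, and the authors' counting used strand.

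RSM22, whose product is a conserved protein related to RNA methyltransferases, had the lowest level per kb of the small subunit (120 normalized counts per kb with DMSO). It also was the gene without the element in the window. RSM22 was placed in the small subunit by its gene name, and no ribosomal protein name of the kind of uL15m was listed for it. Its normalized counts were 216 and 221 with DMSO and 148 and 171 with thiolutin (log2 fold change -0.48, standard error 0.17, adjusted p = 0.0478), and it was called in 1 of the 4 fits with a library left out, the one without thiolutin b. RSM28, for mS46, had 526 and 420 normalized counts with DMSO and 473 and 503 with thiolutin. These values overlapped (log2 fold change 0.04, standard error 0.16, adjusted p = 0.851). The other genes called lower were MRPS16, MRPL9, RSM26, MRPL39, MRPL15, MRPL51, MRPL32 and MRPS12, with log2 fold changes from -0.75 (MRPS16) to -0.48 (MRPS12).

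Values above 0 were found in 9 genes, none of which passed the test. The highest was RSM23, for mS29, a GTP-binding protein whose human relative is known as DAP3. It had 148 and 188 normalized counts with DMSO and 236 and 212 with thiolutin (log2 fold change 0.42, standard error 0.18, adjusted p = 0.0922), and without thiolutin b it was called higher. MRPS5 encodes uS5m and had 168 and 154 against 214 and 188 (log2 fold change 0.34, standard error 0.17, adjusted p = 0.140). In both genes each thiolutin value was above each DMSO value. The sites printed for RSM23 and MRPS5 hold the element with the cytosine, as those of MRPL10 and RSM10 do, and the further site of MRPS5 at base 8 lacks the cytosine.

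The subunits were then compared. In the large subunit 14 of 34 genes were lower (41.2%) and the median log2 fold change was -0.48, and in the small subunit 7 of 21 were lower (33.3%) with a median of -0.27, a difference of -0.21 that was described and not tested over genes. Large subunit genes were shorter, with a median effective length of 552 bases against 679 in the small subunit. The part of length in the difference between the medians was not tested. All 6 values below -1 except that of SWS2 belonged to the large subunit. Normalized counts per kb summed over the large subunit, divided by the same sum for the small subunit, gave 1.71 and 1.70 in DMSO a and b and 1.53 and 1.42 in thiolutin a and b. The ratio was thus lower in both thiolutin libraries (mean 1.71 ± 0.00587 with DMSO and 1.48 ± 0.0776 with thiolutin, SD, n = 2). The two-sided p of an exact permutation test over the libraries was 0.33, and 2 against 2 cannot give a smaller one. The difference between the subunit medians was -0.34 without thiolutin a and -0.15 without thiolutin b. It was -0.17 without DMSO a and -0.20 without DMSO b.

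**Figure D4:**
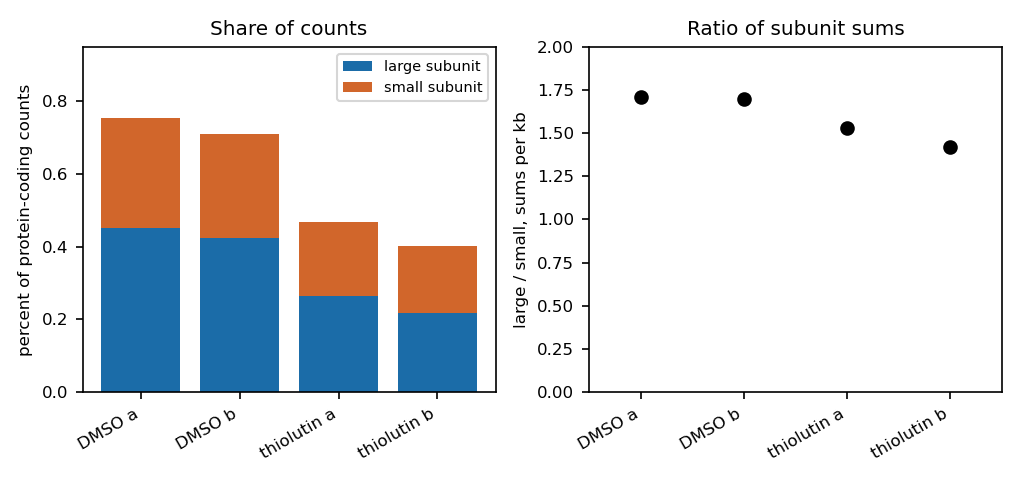
Left, percent of protein-coding counts (vertical axis, bars from 0) taken by large (blue) and small (orange) subunit genes in each library, and right, ratio of the summed normalized counts per kb of the large to the small subunit (points). Together the bars reach 0.753% and 0.711% with DMSO and 0.467% and 0.402% with thiolutin, and the ratio goes from 1.71 and 1.70 to 1.53 and 1.42.

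As a share of all protein-coding counts, the 55 genes made up 0.753% in DMSO a, 0.711% in DMSO b, 0.467% in thiolutin a and 0.402% in thiolutin b. Large subunit genes took 0.453% and 0.424% with DMSO and 0.264% and 0.218% with thiolutin, and small subunit genes 0.301% and 0.286%, then 0.203% and 0.184%. The shares of both subunits were lower in each thiolutin library than in each DMSO library. A share also depends on how many counts other genes take, and the part of this was not tested. TMM-normalized counts summed over the 55 genes were 17220 and 16189 with DMSO and 13328 and 11146 with thiolutin, a smaller fall than that of the shares. By letter, the median log2 ratio of thiolutin to DMSO over the 55 genes was -0.25 for the a libraries and -0.52 for the b libraries, with 43 and 48 of the ratios below 0. Across all protein-coding genes these medians were -0.03 and -0.06.

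Within the family, genes with a bacterial counterpart had 14 of 34 lower (median log2 fold change -0.43), and genes particular to mitochondria had 7 of 21 lower (median -0.23). Of the 21 large subunit genes of the bacterial kind 10 were lower, with a median of -0.51. By DMSO level per kb, 2 of 19 genes were lower in the lowest tertile, 8 of 18 in the middle one and 11 of 18 in the highest, with medians of -0.35, -0.38 and -0.56. Genes at a higher level also had more counts, and the part of this in the number of calls was not tested. The DMSO libraries that set the tertiles are also the reference of the fold change, so the tertile medians are not independent of it. From the shortest to the longest tertile by effective length the medians were -0.52, -0.34 and -0.22. Genes with a bacterial counterpart were shorter than those particular to mitochondria (median effective length 585 against 730 bases). Across the 55 genes, which share the 4 libraries, fold change and log2 length had a Pearson's r of 0.351 and a Spearman's rho of 0.395, given as a description. Genes with 1 site had a median of -0.41 (15 of 41 lower) and genes with 2 or more had a median of -0.56 (5 of 13 lower). All 34 genes that were not called had the element, as did 20 of the 21 called lower. The 806 tested protein-coding genes outside the family with the element in their window had a median log2 fold change of -0.08, with 171 lower (21.2%) and 135 higher. The 4410 tested protein-coding genes without it had a median of -0.03, with 769 lower (17.4%) and 815 higher. PUF3 itself, with 83.0 and 74.4 normalized counts in DMSO a and b and 105 and 61.8 in thiolutin a and b, overlapped between the groups (log2 fold change 0.18, standard error 0.25, adjusted p = 0.603).

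MRPS12 and RSM19 are the members that lie next to each other, on the same strand of chromosome XIV with 229 bases between them. MRPS12, for the uS12m protein of the decoding centre, was called lower (log2 fold change -0.48), and RSM19, for uS19m, had a log2 fold change of -0.31 that did not pass (adjusted p = 0.246).

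Genes of the same machinery whose names the rule does not match were counted in the same fit, in which 17.6% of all rows were lower and 18.5% higher. Of 23 other mitochondrial ribosomal protein genes, 5 were lower (21.7%, near the share of all rows) and none higher, with a median log2 fold change of -0.30, and all 23 had the element after the stop codon. Among them MRX14, for bL34m, had the lowest called value (504 and 440 normalized counts with DMSO, 210 and 174 with thiolutin, log2 fold change -1.27), and PET123, a small subunit protein, the highest called value (-0.64). Of 9 tested genes listed as mitochondrial translation factors 3 were lower (33.3%), among them RRF1 for the ribosome recycling factor (-1.50) and GUF1 for a ribosome-bound GTPase (-0.65), and the median was -0.01. This list holds MTF1, a factor of mitochondrial transcription, and without it 3 of 8 were lower with a median of -0.05. Of 14 mitochondrial aminoacyl-tRNA synthetases 5 were lower (35.7%), with MSR1 for the arginyl enzyme at -2.45, and 1 was higher, AIM10 at 0.78. Of 17 tested genes listed as translational activators of mitochondrial messengers, 8 were lower (47.1%) and 1 was higher. These ran from ATP22, needed for translation of a subunit of the ATP synthase, at -1.91 to AEP3 at 1.64, with a median of -0.70. Of 10 genes listed as assembly factors of the mitochondrial ribosome 4 were lower (40.0%), with a median of -0.71. The called values ran from MRM1, a methyltransferase of the large ribosomal RNA, at -1.64 to MBA1 at -0.75. MBA1 tethers the ribosome to the inner membrane, so the list is broader than assembly.

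A pair of other lists had medians above 0 with TMM. Among 132 cytosolic ribosomal protein genes 6 were lower (4.55%) and 27 higher (20.5%), with a median log2 fold change of 0.15, from RPS9A at -2.43 to RPS7B at 1.44 among those called. Many of these genes exist as near-identical pairs, between which reads can be split, so single values are uncertain. A list of nuclear genes for the respiratory chain and the ATP synthase, whose complexes only in part hold subunits made by the mitochondrial ribosome, had 2 of 38 lower (5.26%) and 8 higher (21.1%), with a median of 0.15. COX5B and COX9, which encode subunits of cytochrome c oxidase, were the lowest and the highest called (-0.91 and 0.85). The element stood in the window of 5.30% of the cytosolic and 21.1% of the respiratory chain genes. The differences between these lists and the mitochondrial ribosomal protein genes were not tested.

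**Figure D5:**
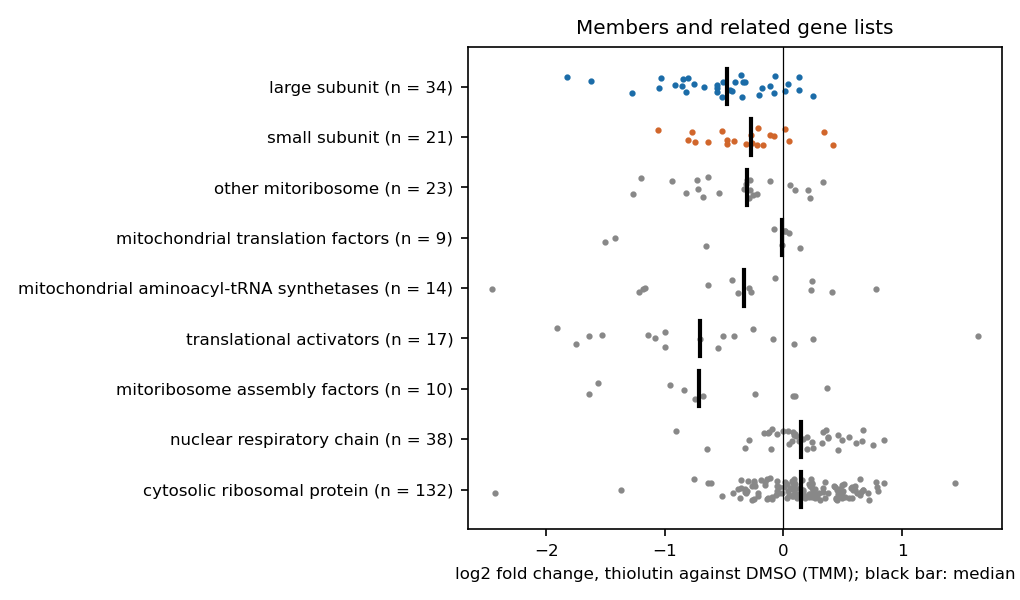
Log2 fold changes (horizontal axis, thiolutin against DMSO after TMM normalization) of single genes (points) in 9 gene groups (vertical axis, number tested in parentheses), with black bars at the medians. The medians of the large and small subunit are -0.48 and -0.27, and those of the nuclear respiratory chain and cytosolic ribosomal protein genes are both 0.15.

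TMM gives changes relative to the typical transcript. With the S. pombe reads of the study's supplement as library sizes, the median log2 fold change of all rows moved from -0.02 to -1.01, and the changes of the 55 genes moved with it. Their median became -1.43, beside -1.04 over protein-coding genes. Since a change of library sizes shifts all genes of a library together, this is not a second result beside that with TMM. On the spike-in scale all 55 values were below 0, from -2.88 (MRPL10) to -0.56 (RSM23). The genes above 0 with TMM are thus below 0 on this scale. It called 49 of the 55 genes lower, beside 2804 of all 5527 rows (50.7%). None of the 55 was higher, beside 81 of all 5527 rows (1.47%). Of the cytosolic ribosomal protein genes 64 were lower and none higher on this scale (median -0.85), and of the respiratory chain list 13 were lower and none higher (median -0.84). Without DMSO a, DMSO b, thiolutin a or thiolutin b, the spike-in median of the 55 genes was -1.36, -1.48, -1.21 and -1.58. In the same order the medians of all rows were -0.94, -1.04, -0.72 and -1.33. Far fewer of the 55 genes were called lower without either DMSO library than with all libraries. The share of all rows called in these fits is not given. Levels after 30 min reflect both synthesis and decay, which cannot be told apart here, nor can less RNA per cell and fewer cells that hold it.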

How the data were processed

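Single-end reads of total RNA were mapped by the authors with STAR 2.7.3a, and RSEM 1.3.1 (reverse-stranded) gave the deposited expected counts per gene, which are not normalized. Bowtie 1.2.2 is also named in the submitters' processing notes. The other deposited value used was the effective length. Of 7071 rows, 6006 matched the R64 annotation, and the files' lengths equalled the annotated ones for 54 of the 55 genes (not MRPL44). Expected counts were rounded to whole numbers, ties up. The main test was edgeR 4.0.16 (R 4.3.3): filterByExpr, TMM, quasi-likelihood fit over all 4 libraries, Benjamini-Hochberg adjustment over 5527 rows. Normalized counts are counts scaled to TMM-adjusted library sizes, and levels per kb divide them by effective length. Single-library ratios used a pseudocount of 0.5. DESeq2 1.42.0 and the settings in the closing section were alternatives. The spike-in scale used the S. pombe reads per library from the study's supplement as library sizes. The libraries of each group differed beyond sampling noise and counted as separate samples. Sequences and coordinates are RefSeq R64, the build that the labels name as sacCer3. The rule for named genes took up to 10 called genes from each end, the extreme levels per kb of each subunit, SWS2, RSM22, RSM28, PUF3, and the extreme called genes of the other lists. Ribosomal protein names such as uL15m are RefSeq synonyms. Members and lists were chosen with earlier results of these data known. Columns of TPM and FPKM values were not used.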

Additional observations from a re-analysis of the deposited data

How the results depend on the processing

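Counts of genes called lower (21) stayed within 1.5 times with DESeq2 size factors (18), TMM on protein-coding rows (19), the likelihood ratio test (21), no filter (21), at least 10 counts in every library (23 of 50 tested) and DESeq2 (14), but not with the spike-in scale (49). With 1 library left out the counts ranged from 9 to 27 lower and from 0 to 1 higher. Left-out libraries on the spike-in scale, an alternative added after seeing the data, gave 0 lower without DMSO a, 3 without DMSO b, 49 without thiolutin a and 55 without thiolutin b, with medians of -1.36, -1.48, -1.21 and -1.58 (-1.43 with all libraries). The differences between replicates a and b had a correlation of 0.03 across genes between DMSO and thiolutin. Noise from few counts lowers such a value, so it cannot show whether the letters pair the libraries. A replicate block gave 20 lower, 19 of them shared, and with the spike-in scale, also added, 22 lower and a median of -1.45. With 1 library left out, the large minus small difference in medians ranged from -0.34 (no thiolutin a) to -0.15 (no thiolutin b). On the spike-in scale it was also -0.34 without thiolutin a. RSM28, at 0.04 with TMM, was at -0.91 on that scale with all libraries, -0.56 without thiolutin a and -1.31 without thiolutin b, where all rows had medians of -1.01, -0.72 and -1.33. The element was found in 87.3% of the genes within 100 bases, 98.2% within 400 bases and 20.0% on the opposite strand. Without division by length the subunit ratios were 1.505 and 1.482 with DMSO and 1.302 and 1.186 with thiolutin. The causes of these changes were not tested. Few counts in thiolutin b, with 5 genes under 10, limit the weakest genes.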
